A study of Mus musculus with 9 samples.

Results

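The genes described here are 48 nuclear genes of the mouse that copy, transcribe and translate mitochondrial DNA (mtDNA), of 55421 genes listed in each of the 2 deposited tables. They were picked by symbol for their known function, and all 48 were found in both tables. All of them passed the filter on low values, a mean of at least 10 normalized counts, in every comparison. Of these, 16 act on mtDNA or its transcripts or regulate such genes from the nucleus, 19 charge mitochondrial tRNAs with amino acids, and 13 are translation factors or enzymes that modify tRNA.

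RNA was sequenced from C2C12 cells, a mouse myoblast line that fuses into myotubes in culture, after 4 days of differentiation. The myotubes received an adenovirus for 4 h at a multiplicity of infection of 3 and were collected after 48 h. The control virus carried LacZ, a bacterial enzyme, and the others carried HA-Flag-tagged PGC-1α, either full length (FL) or without its C-terminal domain (dCTD). Each virus has 3 libraries, which the design text calls biological replicates, and every library comes from the same cell line under an adenovirus, so no uninfected cells are among the groups.

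Mitochondrial DNA encodes core subunits of the respiratory chain together with its own ribosomal and transfer RNAs, while every protein that replicates, reads or translates it is made from nuclear genes and imported. PGC-1α, encoded by Ppargc1a, is a transcriptional coactivator of mitochondrial biogenesis in muscle, and it is known to act through the nuclear factors NRF-1 and GABP and through the estrogen-related receptor ERRα. NRF-1 and GABP bind promoters of genes such as Tfam, Tfb1m and Tfb2m. The products of Tfam and Tfb2m help to start transcription of mtDNA, and that of Tfb1m methylates the small ribosomal RNA of mitochondria.

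Promoter windows were given by RefSeq on GRCm38.p6, the assembly also called mm10, for 43 of the 48 genes and reach from 250 bases before to 50 bases after the start of transcription. They were searched on both strands for the core letters of NRF-1 (GCATGCGC), of the ETS family to which GABP belongs (CCGGAAGT), of ERR (AAGGTCA), of YY1 (AAGATGGC) and of the GC box (GGGCGG). None of these strings contains another. The NRF-1 letters were in 6 of the 43 genes, or 14%, and in 3.93% of 17491 protein-coding genes of the table. The ETS letters were in 7, or 16.3%, against 5.69% of all genes, and the YY1 letters also in 7, against 3.57%. The ERR letters were in 3, or 6.98%, against 4.73%, and the GC box in 27, or 62.8%, against 49.2%. A match is a description of these letters and not evidence of binding.

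The matches for NRF-1, ETS and ERR are shown because these are the factors through which PGC-1α is known to act. Each line gives 30 bases on the strand of the gene, with the matched letters in capitals, from RefSeq on GRCm38.p6.
Tfam, ETS, chr10:71238073-71238102, minus strand: cctgccgcggaCCGGAAGTccgggcttccc
Tfb2m, NRF-1, chr1:179546245-179546274, minus strand: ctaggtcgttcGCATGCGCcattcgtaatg
Polrmt, NRF-1, chr10:79746696-79746725, minus strand: agagtatttctGCGCATGCtctcttgccgc
Twnk, ERR, chr19:45005529-45005558, plus strand: agggtattcacAAGGTCActgcacctagct
Twnk, ETS, chr19:45006436-45006465, plus strand: actaaccggtgACTTCCGGttccggggttg
Polg, ETS, chr7:79466293-79466322, minus strand: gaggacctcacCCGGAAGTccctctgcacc
Tufm, ETS, chr7:126487342-126487371, plus strand: cctcatttccgCCGGAAGTgatctgcagtc
Gfm1, ETS, chr3:67430103-67430132, plus strand: tgaccttcctcCCGGAAGTgctcctgcggc
Gfm1, ERR, chr3:67430092-67430121, plus strand: ggccgtcctccTGACCTTcctcccggaagt
Mtrf1l, ERR, chr10:5824131-5824160, minus strand: ctcgctatctcAAGGTCAcgcctaggcagc
Trmu, ETS, chr15:85879318-85879347, plus strand: cggaggctgggACTTCCGGcgtagcttgga
Rars2, NRF-1, chr4:34614895-34614924, plus strand: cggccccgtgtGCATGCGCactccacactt
Rars2, ETS, chr4:34614941-34614970, plus strand: aagcagaggcgACTTCCGGcgcggaggcgg
Vars2, NRF-1, chr17:35667620-35667649, minus strand: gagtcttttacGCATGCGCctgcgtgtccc
Vars2, NRF-1, chr17:35667594-35667623, minus strand: tccccgcccacGCATGCGCgcgcacctcgc
Wars2, NRF-1, chr3:99141015-99141044, plus strand: ccagaggacagGCGCATGCgtagtaagcac
Mtfmt, NRF-1, chr9:65435769-65435798, plus strand: accatgggcacGCATGCGCatggtgggccg
Read along the gene, the ERR letters of Gfm1 begin 12 bases and its ETS letters 1 base before the start given by RefSeq. The matches of Twnk lie in separate windows, since RefSeq gives it more than 1 start, and the 43 genes have 47 windows in all. Tfb1m and Nars2 held neither NRF-1, ETS, ERR nor YY1 letters in their windows.

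Total reads assigned to genes were 110309704 to 118931863 for LacZ, 99906750 to 123446198 for FL and 87090490 to 110673140 for dCTD. Ppargc1a, the transferred gene, read 408, 383 and 399.7 normalized counts with LacZ, 227297, 198071 and 209100 with FL and 100543, 121631 and 116095 with dCTD. Its mean with FL was 1.88 times that with dCTD, so a difference between the forms of the protein and a difference in their level cannot be told apart. The 37 genes of the mitochondrial chromosome are listed at 0 reads in every library, and the transcripts made from mtDNA were not analysed here. Myotube markers such as Myh3 and Acta1 were abundant in all libraries, with 8 markers summing to 1446000 to 1524000 in the LacZ libraries, 1100000 to 1148000 in FL and 988600 to 1069000 in dCTD, and 6 of the 8 were lower than with LacZ in each comparison. These sets differ, since Ckm was lower with FL and not called with dCTD, and Tnnt3 was lower with dCTD and not called with FL. Des went the other way and was called higher than with LacZ, at log2 differences of 0.86 with FL and 0.18 with dCTD. The 8 markers of proliferating cells summed to 22440 to 24210 in the LacZ libraries, 44700 to 46480 in FL and 26290 to 26900 in dCTD. All 8 passed the test as higher with FL than with LacZ and than with dCTD, and 2 of 8 as higher with dCTD than with LacZ. Markers of endothelial cells and macrophages summed to at most 154 normalized counts per list and library. The 5 fibroblast markers summed to 23430 to 25170 in the LacZ libraries, 20830 to 22490 in FL and 22170 to 23690 in dCTD. Among them Dcn had a mean of 21590 with LacZ, while Tcf21 had 0 reads. For 7 myoblast and reserve cell markers the sums were 63740 to 65540, 63810 to 68000 and 59360 to 63320 for LacZ, FL and dCTD. The part of these marker shifts in the results on the 48 genes was not tested, and in bulk RNA fewer cells of a type and less RNA per cell cannot be told apart.

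Differences from LacZ were fitted within each table on log2(normalized count + 1), and a gene was called when its p, adjusted over all tested genes, was under 0.05. Values per library are normalized counts on a common scale for all 9 libraries. With FL, 40 of the 48 genes rose over LacZ, where 30.9% of 18227 tested genes did, and 1 fell, where 28.3% did. Their median log2 difference was 0.48, against -0.01 for all tested genes, and 10 of them rose at least 2-fold, where 8.65% of all genes did. With dCTD, 38 of 48 rose, where 23.1% of 18066 tested genes did, and 1 fell, where 21.7% did. The median was 0.38 against -0.01, and 5 rose at least 2-fold, where 4.3% of all genes did. The gene that fell was Nars2 in both comparisons. When libraries were scaled by total count without Ppargc1a, FL against LacZ had 37 of the 48 genes higher and 3 lower, and over all genes 4575 higher and 7140 lower, against 5637 and 5162 here. The authors' deposited table has 39 of the 48 higher and 1 lower with FL, and 38 higher and 1 lower with dCTD, at the same threshold.

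**Figure D1:**
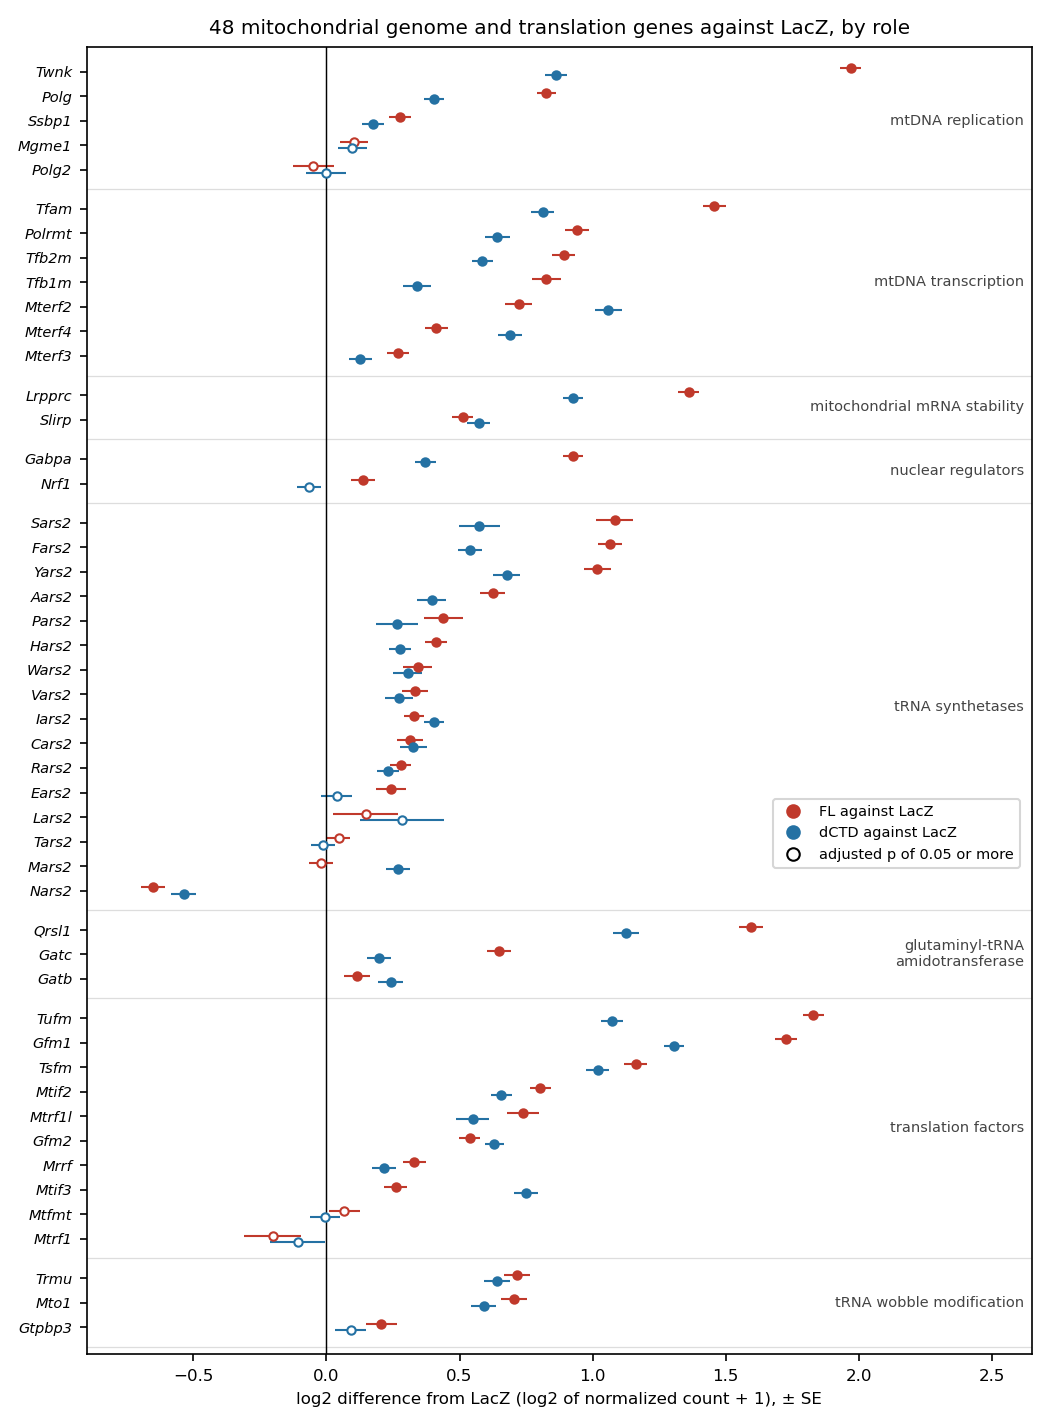
Log2 difference from LacZ of each of the 48 genes on the x axis, with its standard error, for FL in red and dCTD in blue, grouped by role and sorted by the FL value. Twnk lies farthest to the right with FL at 1.97, and Nars2 is the filled pair of points left of 0. Open points did not pass the test.

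By group, the genes of mtDNA and transcription had 14 of 16 higher with FL and 13 of 16 with dCTD, with median log2 differences of 0.775 and 0.488. The translation factors and tRNA modifying enzymes had 11 of 13 and 10 of 13 higher, with medians of 0.70 and 0.63. The tRNA charging genes had 15 of 19 higher with each form, with medians of 0.33 and 0.28. The range within each group was wider than the distance between the groups' medians.

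**Figure D2:**
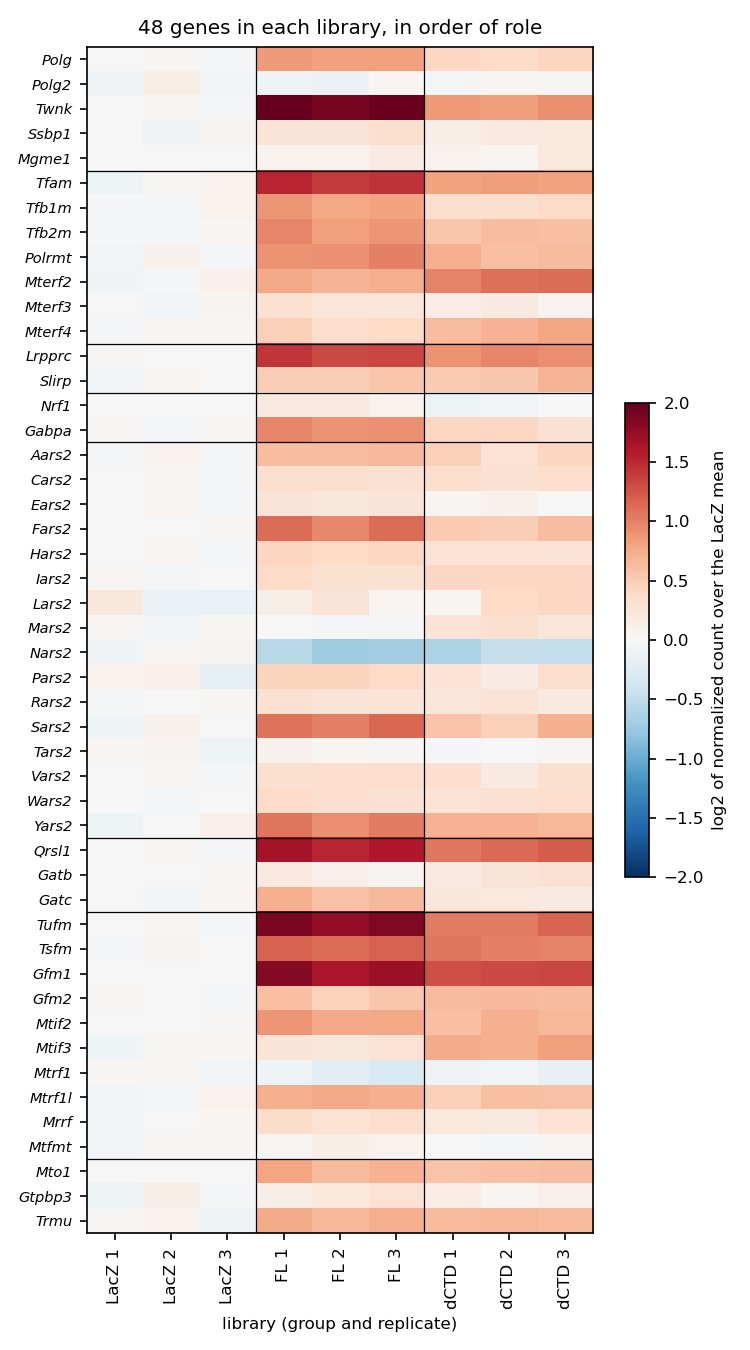
Level of the 48 genes in each of the 9 libraries, as the log2 of the normalized count over the mean of the LacZ libraries (red above, blue below), in order of role. The 3 libraries of a group share their colour in most rows, while Lars2 differs among the LacZ libraries as much as between groups.

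Within replication of mtDNA the response was uneven. Twnk (ENSMUSG00000025209, mm10 chromosome 19, 45005663 to 45012762, plus strand) encodes Twinkle, the helicase that unwinds mtDNA. It read 3457, 3596 and 3402 normalized counts in the LacZ libraries, 14340, 13005 and 13599 with FL and 6256, 6198 and 6658 with dCTD. The groups did not overlap, and Twnk was the highest of the 48 genes with FL, 3.92-fold above LacZ, a log2 difference of 1.97 (SE 0.040, adjusted p 5.25e-27). With dCTD it was 1.82-fold above LacZ, 0.86 (SE 0.042, adjusted p 1.35e-14). Twnk shares 12.6% of its exonic bases with Mrpl43 on the opposite strand, a gene that itself differed by 1.35 with FL and 0.74 with dCTD. The value of Twnk is uncertain to that extent.

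Polg, the catalytic subunit of the mtDNA polymerase, read 4853, 4923 and 4727 normalized counts in the LacZ libraries, 8705, 8507 and 8502 with FL and 6472, 6314 and 6512 with dCTD. It rose with both forms, by 0.83 (SE 0.037, adjusted p 2.57e-18) with FL and 0.40 (SE 0.039, adjusted p 4.26e-09) with dCTD, without overlap between groups. Polg2, the accessory subunit of the same polymerase, read 478, 545 and 487 normalized counts in the LacZ libraries, 474, 464 and 519.8 with FL and 491, 514 and 509 with dCTD. Its groups overlapped, and its differences of -0.05 (adjusted p 0.604) and 0.00 (adjusted p 0.994) did not pass. The subunits of this polymerase differed in call, and the difference between them was not tested, with the level of Polg at 4.30 ± 0.0890 and of Polg2 at 1.10 ± 0.0746 RPKM, which is reads scaled by exon length and library size (SD, n = 3) with LacZ.

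Ssbp1, which coats single-stranded mtDNA, had smaller differences than Twnk and Polg. It read 4809, 4583 and 4988 normalized counts in the LacZ libraries, 5711, 5702 and 5993 with FL and 5281, 5493 and 5556 with dCTD, differences of 0.28 (SE 0.041, adjusted p 7.46e-07) and 0.18 (SE 0.042, adjusted p 0.00118). Mgme1, an exonuclease that trims replication ends, read 1204, 1214 and 1199 normalized counts in the LacZ libraries, 1268, 1270 and 1350 with FL and 1264, 1236 and 1397 with dCTD. Although its FL and dCTD libraries lay above all LacZ libraries, the differences of 0.10 (adjusted p 0.0918) and 0.10 (adjusted p 0.167) did not pass.

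All 7 genes of mtDNA transcription rose with both forms, though the dCTD call of Mterf3 depended on single libraries. Tfam (ENSMUSG00000003923, mm10 chromosome 10, 71225464 to 71238280, minus strand), which packages mtDNA and bends its promoters, read 5093, 5545 and 5763 normalized counts in the LacZ libraries, 15712, 14464 and 14824 with FL and 9549, 9807 and 9558 with dCTD. The groups were separate and ordered LacZ, dCTD, FL, with Tfam 2.75-fold above LacZ with FL, 1.46 (SE 0.043, adjusted p 1.53e-21), and 1.76-fold with dCTD, 0.81 (SE 0.043, adjusted p 7.67e-14). Tfam's window holds the ETS letters shown above, 47 bases before the start given by RefSeq. That start lies inside the span printed here, and so do these letters.

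Tfb2m (ENSMUSG00000026492, mm10 chromosome 1, 179528055 to 179546267, minus strand), the factor that melts the promoter for the polymerase, read 3532, 3564 and 3717 normalized counts in the LacZ libraries, 7058, 6367 and 6632 with FL and 5300, 5523 and 5497 with dCTD. Its difference was 0.89 (SE 0.042, adjusted p 7.37e-18) with FL and 0.59 (SE 0.040, adjusted p 1.1e-11) with dCTD. The related Tfb1m (ENSMUSG00000036983, mm10 chromosome 17, 3519256 to 3557781, minus strand) methylates the small ribosomal RNA of mitochondria, and it was less abundant per length than Tfb2m with LacZ, 2.93 ± 0.132 against 12.3 ± 0.314 RPKM (SD, n = 3). It read 1081, 1075 and 1166 normalized counts in the LacZ libraries, 2051, 1899 and 1939 with FL and 1402, 1388 and 1436 with dCTD, and differed by 0.83 (SE 0.053, adjusted p 1.36e-14) and 0.34 (SE 0.054, adjusted p 1.16e-05). The log2 differences of these paralogs were 0.83 and 0.89 with FL and 0.34 and 0.59 with dCTD, and the difference between the genes was not tested.

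Polrmt, the RNA polymerase of mitochondria, read 2445, 2721 and 2488 normalized counts in the LacZ libraries, 4778, 4798 and 5113 with FL and 4178, 3865 and 3959 with dCTD. It was 1.92-fold above LacZ with FL, 0.94 (SE 0.045, adjusted p 9.92e-18), and 1.56-fold with dCTD, 0.64 (SE 0.047, adjusted p 3.75e-11). For Tfam, Tfb1m, Tfb2m and Polrmt alike, every dCTD library lay between the LacZ and the FL libraries.

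The MTERF proteins, which bind mtDNA or mitochondrial ribosomal RNA, ran in different orders. Mterf2 read 1350, 1398 and 1525 normalized counts in the LacZ libraries, 2401, 2276 and 2366 with FL and 2826, 3047 and 3075 with dCTD, and differed from LacZ by 0.72 (SE 0.051, adjusted p 1.47e-13) with FL and 1.06 (SE 0.052, adjusted p 1.68e-14) with dCTD. Mterf4, a partner of a ribosomal RNA methyltransferase, read 2581, 2688 and 2680 normalized counts in the LacZ libraries, 3685, 3385 and 3511 with FL and 4059, 4279 and 4571 with dCTD, with differences of 0.41 (SE 0.043, adjusted p 1.38e-09) and 0.69 (SE 0.046, adjusted p 5.45e-12). In both genes all dCTD libraries exceeded all FL libraries, which in turn exceeded all LacZ libraries. Mterf3 read 3553, 3412 and 3688 normalized counts in the LacZ libraries, 4409, 4217 and 4212 with FL and 3954, 4019 and 3728 with dCTD, with smaller differences of 0.27 (SE 0.042, adjusted p 1.75e-06) and 0.13 (SE 0.044, adjusted p 0.0202). Its dCTD call ended without LacZ replicate 2 (0.10, adjusted p 0.105), without dCTD replicate 1 (0.12, adjusted p 0.0773) and without dCTD replicate 2 (0.11, adjusted p 0.0893). Mterf4 shares 35.2% of its exonic bases with Sned1 and Mterf2 22.7% with Tmem263, both on the opposite strand, and since it is not stated whether counting used strand, part of these values may belong to the partner.

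Lrpprc and Slirp encode a complex that keeps mitochondrial mRNAs stable. Lrpprc read 9705, 9548 and 9488 normalized counts in the LacZ libraries, 25950, 23829 and 24061 with FL and 17887, 18834 and 18155 with dCTD, and rose by 1.36 (SE 0.038, adjusted p 1.69e-23) with FL and 0.93 (SE 0.037, adjusted p 3.85e-16) with dCTD. Its partner Slirp read 5567, 5924 and 5814 normalized counts in the LacZ libraries, 8079, 8082 and 8498 with FL and 8272, 8395 and 9214 with dCTD, and rose by 0.51 (SE 0.039, adjusted p 8.27e-13) and 0.57 (SE 0.043, adjusted p 6.97e-11). The value of Lrpprc was the larger with either form. Slirp shares 93.9% of its exonic bases with Snw1 on the opposite strand, so its value is uncertain.

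Of the nuclear regulators, Gabpa, the DNA-binding subunit of GABP, rose with both forms, while Nrf1, which encodes NRF-1, had small differences. Gabpa read 12589, 12056 and 12711 normalized counts in the LacZ libraries, 24525, 23138 and 23379 with FL and 16557, 16632 and 15415 with dCTD. It differed by 0.93 (SE 0.038, adjusted p 1.97e-19) with FL and 0.37 (SE 0.040, adjusted p 3.27e-08) with dCTD. Nrf1 read 2610, 2615 and 2653 normalized counts in the LacZ libraries, 2962, 2963 and 2744 with FL and 2447, 2517 and 2607 with dCTD. The FL libraries lay above and the dCTD libraries below all LacZ libraries, by 0.14 (SE 0.044, adjusted p 0.00809), a call, and by -0.07 (adjusted p 0.242), which did not pass. The call for Nrf1 with FL ended when libraries were scaled by total count without Ppargc1a, at 0.05 with adjusted p 0.309.

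**Figure D3:**
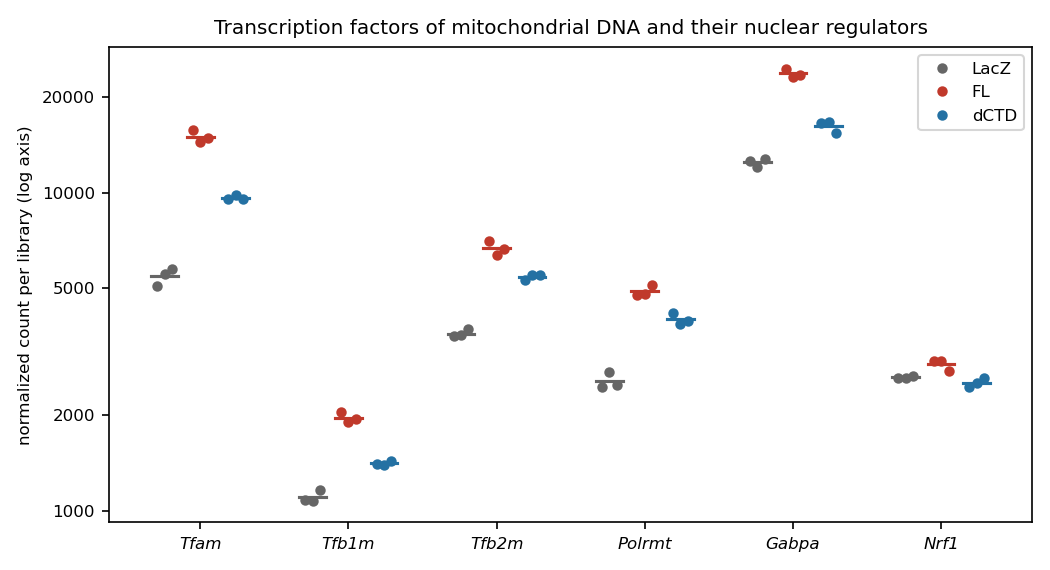
Normalized counts of 4 genes of mtDNA transcription and of the nuclear regulators Gabpa and Nrf1 in each library, on a logarithmic y axis, with bars at the group means. LacZ, dCTD and FL libraries form separate, ascending groups for every gene shown except Nrf1, whose values run from 2447 to 2963.

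In a list of 10 genes for partners of NRF-1 and GABP, coactivators and other transcription factors such as Esrra, 3 rose and 1 fell with FL. With dCTD 2 rose and 2 fell. Over all tested genes 30.9% rose with FL and 23.1% with dCTD, so the share of the list that rose was near the background. Esrra, which encodes ERRα, rose by 2.696 (SE 0.072, adjusted p 4.81e-10) with FL and 1.81 (SE 0.062, adjusted p 1.05e-12) with dCTD, with means of 2920 normalized counts for LacZ, 18860 for FL and 10240 for dCTD. Ppargc1b, the sister coactivator of Ppargc1a, fell by 0.64 with FL and by 0.41 with dCTD. Myc rose by 0.51 with FL and 0.19 with dCTD.

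The mitochondrial tRNA synthetases attach amino acids to the tRNAs made from mtDNA. Of 16, 12 rose, 1 fell and 3 did not pass with FL, with a median log2 difference of 0.33 and a range from -0.65 to 1.08. With dCTD the counts were again 12, 1 and 3, with a median of 0.28 and a range from -0.53 to 0.68. No synthetase reached 2-fold with dCTD, and 3 did with FL.

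Those 3 were Sars2, Fars2 and Yars2, the serine, phenylalanine and tyrosine enzymes. Sars2 read 398, 446 and 423 normalized counts in the LacZ libraries, 894, 850.1 and 939 with FL and 627, 585 and 687 with dCTD, and rose by 1.08 (SE 0.070, adjusted p 1.64e-14) with FL and 0.57 (SE 0.077, adjusted p 1.07e-06) with dCTD. Fars2 read 1987, 1992 and 2029 normalized counts in the LacZ libraries, 4363, 3884 and 4335 with FL and 2881, 2824 and 3085 with dCTD, with 1.06 (SE 0.046, adjusted p 9.13e-19) and 0.54 (SE 0.046, adjusted p 5.37e-10). Yars2 read 1626, 1748 and 1866 normalized counts in the LacZ libraries, 3684, 3335 and 3582 with FL and 2833, 2819 and 2756 with dCTD, with 1.02 (SE 0.051, adjusted p 9.29e-17) and 0.68 (SE 0.050, adjusted p 4.04e-11). In each of these genes the groups were separate, with dCTD between LacZ and FL.

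Nars2 (ENSMUSG00000018995, mm10 chromosome 7, 96951505 to 97064758, plus strand), the asparagine enzyme, was the only member called lower than LacZ. It read 4926, 5289 and 5371 normalized counts in the LacZ libraries, 3529, 3173 and 3212 with FL and 3351, 3763 and 3705 with dCTD. All libraries of either form lay below all LacZ libraries, with log2 differences of -0.65 (SE 0.045, adjusted p 1.61e-13) with FL and -0.53 (SE 0.047, adjusted p 1.11e-09) with dCTD. FL and dCTD thus had 0.636 and 0.690 times the LacZ level. Nars, the cytosolic asparagine enzyme, differed by 0.34 (SE 0.041, adjusted p 1.85e-08) with FL and 0.02 with dCTD, the latter not passing the test.

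Mars2, the methionine enzyme, read 2896, 2710 and 2868 normalized counts in the LacZ libraries, 2852, 2760 and 2740 with FL and 3403, 3529 and 3331 with dCTD. FL overlapped LacZ, at -0.02 (adjusted p 0.718), while all dCTD libraries exceeded both, at 0.27 (SE 0.044, adjusted p 1.67e-05). Tars2, for threonine, did not pass with either form, at 0.05 and -0.01. Ears2, for glutamate, rose with FL by 0.24 (adjusted p 0.000386) and was at 0.04 (adjusted p 0.623) with dCTD.

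Lars2, the leucine enzyme, had the highest value of the 48 genes per length, at 68.0 ± 10.1 RPKM (SD, n = 3) with LacZ. The next, Tufm, had 27.5. Lars2 was also the most variable, and whether all reads counted for it come from its transcripts was not tested. It read 91922, 73129 and 71752 normalized counts in the LacZ libraries, 85352, 94245 and 81346 with FL and 80845, 104479 and 104616 with dCTD. The groups overlapped, and neither 0.15 (SE 0.12, adjusted p 0.366) nor 0.28 (SE 0.16, adjusted p 0.232) passed. The first LacZ library was the highest of its group, and without it the FL difference was 0.26 with adjusted p 5.6e-10. Without the first dCTD library the dCTD difference was 0.41 with adjusted p 0.011, and edgeR called it with all libraries at 0.29 with adjusted p 0.00616.

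The remaining 8 synthetases all rose with both forms. Aars2, for alanine, had 0.62 with FL and 0.39 with dCTD. Pars2, for proline, had 0.44 and 0.26, and Hars2, for histidine, 0.41 and 0.28. Cars2, Iars2, Rars2, Vars2 and Wars2, for cysteine, isoleucine, arginine, valine and tryptophan, lay between 0.28 and 0.34 with FL and between 0.23 and 0.40 with dCTD. The dCTD call of Pars2 ended without LacZ replicate 3 (0.17, adjusted p 0.0905) and without dCTD replicate 3 (0.22, adjusted p 0.0509). Iars2 shares 22.9% of its exonic bases with Rab3gap2 on the opposite strand, so its value is uncertain.

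The cytosolic synthetases, which serve the main ribosomes of the cell, gave a different count with dCTD. Of 20, 17 rose and 2 fell with FL, with a median of 0.24. With dCTD 4 rose and 5 fell, with a median of -0.01. Among all tested genes 30.9% rose and 28.3% fell with FL. The shares with dCTD were 23.1% and 21.7%, so the dCTD counts of this list were near the background. Gars, which makes the glycine enzyme of both compartments, rose by 1.81 (SE 0.045, adjusted p 2.19e-22) with FL and 0.64 (SE 0.039, adjusted p 9.83e-13) with dCTD. Wars, for tryptophan, rose by 1.48 (SE 0.040, adjusted p 5.74e-24) and 0.74 (SE 0.041, adjusted p 2.11e-13). Eprs, for glutamate and proline, rose by 0.58 (SE 0.039, adjusted p 6.87e-14) with FL and had -0.02 with dCTD, which did not pass.

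The 16 mitochondrial enzymes were set beside the cytosolic enzyme for the same amino acid, Eprs standing in 2 of these pairs. With FL both genes rose in 12 pairs, and in the other 4 the cytosolic gene rose while the mitochondrial gene fell (Nars2) or was not called. With dCTD both rose in 2 pairs, for tryptophan and tyrosine, the mitochondrial gene rose with no call for the cytosolic gene in 7, and the mitochondrial gene rose while the cytosolic gene fell in 3, which were alanine, cysteine and methionine. Tested directly, FL exceeded dCTD in 15 of 20 cytosolic genes and was lower in 1. It exceeded dCTD in 7 of 16 mitochondrial genes and was lower in 2. Among all tested genes 22.4% were higher and 17.8% lower with FL than with dCTD. No test of the difference between these lists was run, and FL was also the group in which all 8 proliferating cell markers were higher, whose part here was not tested.

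**Figure D4:**
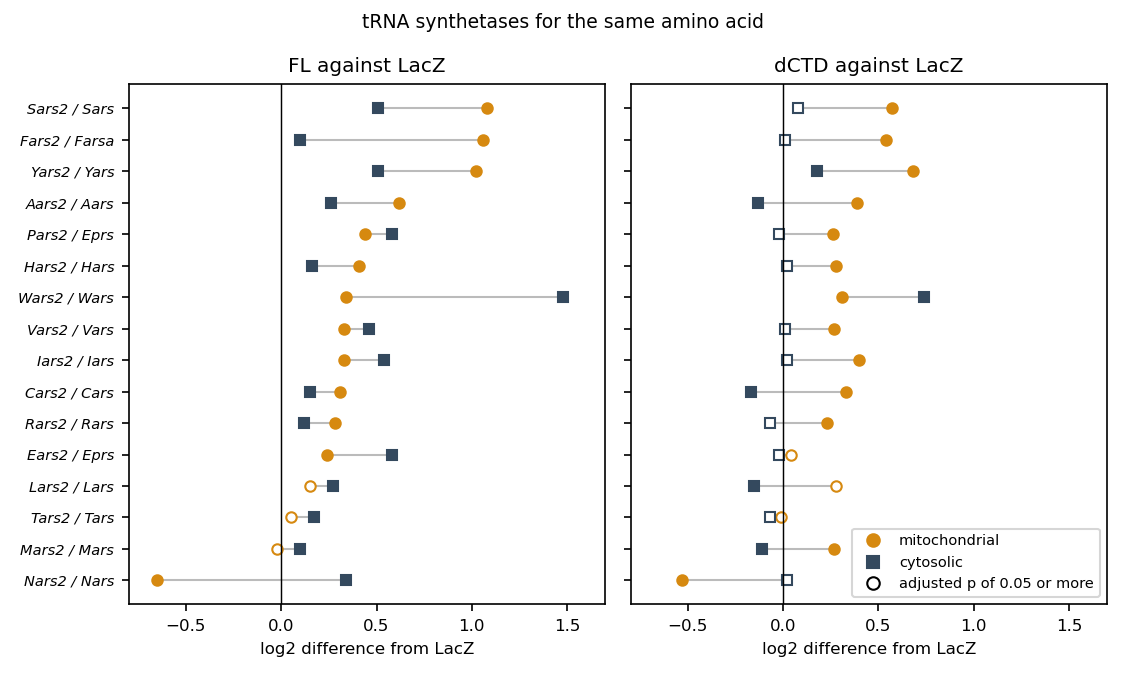
Log2 difference from LacZ of mitochondrial (orange circles) and cytosolic (dark squares) tRNA synthetases for the same amino acid, joined by a line, for FL on the left and dCTD on the right, with open symbols where the test was not passed. With FL all squares lie right of 0, while with dCTD only Wars and Yars are filled squares to the right of it.

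Mitochondria make glutaminyl-tRNA by another route, charging glutamate first and converting it with the amidotransferase of Qrsl1, Gatb and Gatc. Qrsl1, the catalytic subunit, read 1246, 1268 and 1232 normalized counts in the LacZ libraries, 3948, 3594 and 3782 with FL and 2603, 2736 and 2881 with dCTD. It rose 3.02-fold with FL, 1.59 (SE 0.047, adjusted p 3.7e-23), and 2.18-fold with dCTD, 1.12 (SE 0.049, adjusted p 1.92e-15). Gatc read 2213, 2114 and 2251 normalized counts in the LacZ libraries, 3601, 3276 and 3430 with FL and 2572, 2529 and 2480 with dCTD, and rose by 0.65 (SE 0.045, adjusted p 1.46e-13) and 0.20 (SE 0.045, adjusted p 0.000821). Gatb read 1872, 1878 and 1910 normalized counts in the LacZ libraries, 2150, 2020 and 1965 with FL and 2156, 2248 and 2328 with dCTD, with 0.12 (SE 0.048, adjusted p 0.0378) and 0.24 (SE 0.046, adjusted p 0.000134), the smallest FL value of the 3 subunits. The call for Gatb with FL was lost under most alternatives, among them edgeR at 0.11 with adjusted p 0.0526 and the omission of any LacZ library or of FL replicate 1 or 2, with adjusted p from 0.0536 to 0.207.

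Translation factors held several of the largest changes. Tufm, the elongation factor that brings charged tRNA to the mitochondrial ribosome, read 6138, 6264 and 5948 normalized counts in the LacZ libraries, 22604, 20618 and 21988 with FL and 12620, 12541 and 13657 with dCTD. It rose 3.55-fold with FL, 1.83 (SE 0.039, adjusted p 1.76e-26), and 2.10-fold with dCTD, 1.07 (SE 0.041, adjusted p 1.44e-16). With FL, at 91.8 ± 3.29 RPKM, Tufm had the highest mean level of the 48 genes per length, with Lars2 next at 70.4 ± 5.90. Gfm1, the translocase of elongation, read 6799, 6834 and 6737 normalized counts in the LacZ libraries, 24127, 21030 and 22342 with FL and 16573, 16939 and 17105 with dCTD. It rose by 1.73 (SE 0.042, adjusted p 1.52e-24) and 1.31 (SE 0.036, adjusted p 4.76e-19), and the dCTD value was the highest of the 48 genes with that form.

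Tsfm, which recharges Tufm with GTP, read 2053, 2181 and 2097 normalized counts in the LacZ libraries, 4782, 4583 and 4797 with FL and 4441, 4248 and 4210 with dCTD. Its differences of 1.16 (SE 0.042, adjusted p 1.06e-20) and 1.02 (SE 0.043, adjusted p 1.16e-15) were closer to each other than those of Tufm. Gfm2, which acts in recycling of ribosomes and not in elongation, had 0.54 with FL and 0.63 with dCTD, both calls, and Mrrf, the recycling factor it works with, had 0.33 and 0.22, both calls as well.

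The initiation factors differed between the forms. Mtif2 had 0.80 (SE 0.040, adjusted p 2.28e-17) with FL and 0.66 (SE 0.039, adjusted p 8.4e-13) with dCTD. Mtif3 read 2640, 2845 and 2881 normalized counts in the LacZ libraries, 3343, 3251 and 3414 with FL and 4688, 4541 and 4928 with dCTD. Every dCTD library stood above every FL library, and the differences from LacZ were 0.26 (SE 0.044, adjusted p 7.22e-06) with FL and 0.75 (SE 0.045, adjusted p 8.81e-13) with dCTD. Mtif3 shares 29.4% of its exonic bases with Gtf3a on the opposite strand, so its value is uncertain.

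Mtfmt, which formylates the initiator methionyl-tRNA, read 935, 985 and 992 normalized counts in the LacZ libraries, 984, 1048 and 1017 with FL and 979, 946 and 991 with dCTD. The groups overlapped, and neither difference passed, at 0.07 (adjusted p 0.324) and -0.01 (adjusted p 0.951). Mtrf1l, the factor for the usual stop codons, rose by 0.74 with FL and 0.55 with dCTD, while Mtrf1 was the least abundant of the 48 genes, at 0.742 ± 0.0248 RPKM with LacZ. It read 192, 189.9 and 181 normalized counts in the LacZ libraries, 176, 162 and 151 with FL and 176, 179.5 and 169 with dCTD. Both forms lay below LacZ in all libraries, but -0.20 (adjusted p 0.11) and -0.11 (adjusted p 0.426) did not pass.

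The 3 enzymes of the tRNA wobble base were all called higher with FL. Trmu, which adds the sulfur to this base, read 1546, 1594 and 1437 normalized counts in the LacZ libraries, 2551, 2430 and 2526 with FL and 2374, 2418 and 2378 with dCTD, and rose by 0.71 (SE 0.049, adjusted p 7.12e-14) and 0.64 (SE 0.049, adjusted p 7.59e-11). Mto1 read 1456, 1463 and 1474 normalized counts in the LacZ libraries, 2527, 2264 and 2373 with FL and 2182, 2222 and 2248 with dCTD, and rose by 0.70 (SE 0.049, adjusted p 1.16e-13) and 0.59 (SE 0.046, adjusted p 1.2e-10). In both genes all libraries of either form exceeded all LacZ libraries. Gtpbp3, the partner of Mto1 in the same modification, read 1228, 1421 and 1283 normalized counts in the LacZ libraries, 1415, 1518 and 1597 with FL and 1453, 1349 and 1405 with dCTD. It had 0.21 (SE 0.058, adjusted p 0.00307) with FL and 0.09 (adjusted p 0.211) with dCTD. Its groups overlapped in each comparison. Its FL call ended with scaling by total count without Ppargc1a (0.12, adjusted p 0.0853), and without LacZ replicate 2 dCTD passed as well (0.15, adjusted p 0.0437).

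FL and dCTD were then compared directly on the common scale. Of the 48 genes, 26 were higher with FL, where 22.4% of 18129 tested genes were, and 7 were lower, where 17.8% were. Their median log2 difference was 0.12, against 0.00 for all tested genes, and 1 gene was at least 2-fold higher with FL, where 3.43% of all genes were. By group, 11 of 16 genes of mtDNA and transcription were higher and 2 lower, 9 of 19 tRNA charging genes were higher and 3 lower, and 6 of 13 translation and modification genes were higher and 2 lower.

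Twnk differed most, by 1.10 (SE 0.039, adjusted p 7.89e-20), or 2.14-fold. Tufm followed with 0.75 (SE 0.040, adjusted p 1.54e-15) and Tfam with 0.64 (SE 0.037, adjusted p 5.65e-15). Gabpa differed by 0.55 (SE 0.038, adjusted p 3.65e-13), Fars2 by 0.52 (SE 0.045, adjusted p 1.55e-10), Sars2 by 0.50 (SE 0.067, adjusted p 3.22e-07) and Tfb1m by 0.48 (SE 0.047, adjusted p 1.05e-09). In each of these the FL libraries lay above every dCTD library.

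The order was the opposite for 7 genes. FL minus dCTD was -0.50 (SE 0.040, adjusted p 9.71e-12) for Mtif3 and -0.34 (SE 0.043, adjusted p 1.14e-07) for Mterf2. It was -0.30 (SE 0.040, adjusted p 4.22e-07) for Mars2 and -0.29 (SE 0.043, adjusted p 3.28e-06) for Mterf4, and in these 4 genes the groups did not overlap. Of them, Mtif3, Mterf2 and Mterf4 share 29.4%, 22.7% and 35.2% of their exonic bases with a gene on the opposite strand, so their values are uncertain. Gatb, Nars2 and Gfm2 had smaller differences of -0.13, -0.13 and -0.10. Nars2 also overlapped between the groups. Its call ended without FL replicate 2 or 3 or dCTD replicate 2 or 3, with adjusted p from 0.112 to 0.159. Gatb lost its call without FL replicate 2 or 3 or dCTD replicate 3, with adjusted p from 0.0612 to 0.125, and Gfm2 without FL replicate 2 or 3 or dCTD replicate 1 or 2, with adjusted p from 0.0634 to 0.205. Among the genes higher with FL, Ssbp1, Pars2, Mrrf, Mtif2 and Mtrf1l lost their call without at least 1 library, at differences of at most 0.18.

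Another 15 genes did not pass, among them Slirp at -0.07 (adjusted p 0.183), Iars2 at -0.08 (adjusted p 0.0586), Trmu at 0.07 (adjusted p 0.224) and Mto1 at 0.11 (adjusted p 0.0632). All 3 wobble modification enzymes were in this class, though Mto1 passed without FL replicate 2 (0.14, adjusted p 0.0213) and Gtpbp3 without FL replicate 1 (0.15, adjusted p 0.0361). Iars2 passed without FL replicate 1 (-0.11, adjusted p 0.0234) and with edgeR (-0.09, adjusted p 0.0381), and Lars2 without dCTD replicate 1 (-0.27, adjusted p 2.44e-05). When libraries were scaled by total count without Ppargc1a, 18 of the 48 genes were higher and 9 lower with FL than with dCTD. Over all genes that scaling gave 3141 higher and 5410 lower, against 4053 and 3228 here.

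**Figure D5:**
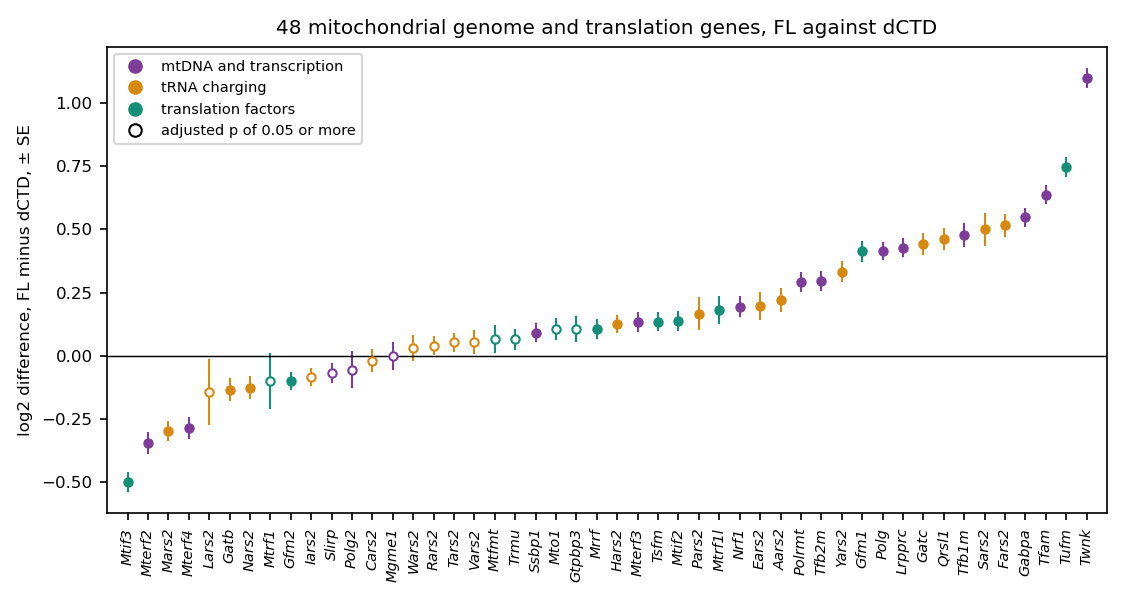
Log2 difference of FL minus dCTD for the 48 genes on the y axis, sorted, with standard errors, coloured by group, and open where the test was not passed. The values run from -0.50 for Mtif3 to 1.10 for Twnk.

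Genes around the 48 were read from lists of the same pathways. For each list the background is all tested genes, of which 30.9% rose and 28.3% fell with FL. With dCTD the background shares were 23.1% and 21.7%. Of 17 tested genes of other mtDNA upkeep and nucleotide supply, 8 rose and 5 fell with FL and 7 rose and 4 fell with dCTD. Endog, a mitochondrial nuclease, rose by 3.01 (SE 0.068, adjusted p 4.64e-25) with FL and 1.54 with dCTD, Lonp1, the protease that degrades TFAM, by 1.69 (SE 0.039, adjusted p 8.27e-26) and 1.06, and Slc25a33, a pyrimidine nucleotide carrier, by 1.61 and 0.58. Atad3a, an inner membrane ATPase, rose by 1.35 and 0.74. The list's median was 0.05 with either form, and its share of genes that fell was near the background. The 4 genes named are those of the list at least 2-fold higher with FL.

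Of 37 other genes of mitochondrial RNA processing and modification, 30 rose and 1 fell with FL, with a median of 0.565, and 28 rose and 1 fell with dCTD, with a median of 0.40. Mrm1, a methyltransferase of mitochondrial ribosomal RNA, rose by 2.37 (SE 0.049, adjusted p 1.59e-25) with FL and 1.07 with dCTD, and differed by 1.29 between the forms. Tbrg4 rose by 1.63 and 0.89, and Fastkd1 by 1.56 and 1.23, both of the FASTK family of mitochondrial RNA-binding proteins.

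Of 18 other genes of mitochondrial translation and ribosome assembly, 15 rose and 2 fell with FL and 14 rose and 1 fell with dCTD. Taco1, a translational activator of cytochrome c oxidase, rose by 1.57 and 1.26, and Rmnd1 by 1.18 and 0.90. Mss51, a muscle-enriched gene named for a yeast translational activator, fell by 1.96 with FL and by 0.70 with dCTD, with mean normalized counts of 4116 for LacZ, 1056 for FL and 2538 for dCTD.

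The promoter letters were set beside the values as a description. The 7 genes with the ETS letters had a median log2 difference of 1.46 with FL and 0.81 with dCTD, against 0.46 and 0.36 for the 36 without them, and all 7 were called higher with both forms. The 6 genes with the NRF-1 letters had 0.34 and 0.29, against 0.65 and 0.40 for the rest, and 5 of them were called higher with each form. Of all 48 genes 40 were called higher with FL and 38 with dCTD, so these counts are near the share of the members. The 3 genes with the ERR letters, Gfm1, Mtrf1l and Twnk, had 1.73 and 0.86, against 0.525 and 0.383. Gfm1 and Twnk hold the ETS letters as well, so the ETS and ERR medians rest in part on the same genes. The 7 genes with the YY1 letters had 0.624 and 0.395, against 0.593 and 0.404. The 27 genes with the GC box had lower medians than the rest, 0.343 and 0.327 against 0.709 and 0.616.

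The position of neighbouring genes was looked at after the values were known. A start of transcription of another protein-coding gene on the opposite strand lay within 1000 bases for 16 of 48, or 33.3%, against 10.8% of 22028 protein-coding genes. Of 15 such neighbours tested, 8 rose and 4 fell with FL, and 6 rose and 3 fell with dCTD, with median log2 differences of 0.155 and 0.0265. Over all tested genes 30.9% rose and 28.3% fell with FL, and 23.1% and 21.7% with dCTD. The neighbours named here were picked for their values. Lyrm4, which faces Fars2, had 1.53 with FL and 0.71 with dCTD. Rtn4ip1, facing Qrsl1, had 1.42 with each form, while Qrsl1 itself had 1.59 and 1.12. Cnst, facing Tfb2m, had -0.38 with FL, and Ptdss1, facing Mterf3, had -0.40.

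Exonic bases were shared with a gene on the opposite strand in 23 of the 48 genes and on the same strand in 0, and in 8 of them the share, summed over such partners, was over 10%. These 8 were Twnk, Mterf2, Mterf4, Slirp, Iars2, Mtif3, Fars2 and Mrrf, and their values are uncertain. Fars2 shares 8.72% with Nrn1 and 2.00% with Lyrm4, and Mrrf shares 7.75% with Rbm18 and 7.34% with Gm13428. Transcripts of 4 members had stretches of at least 400 bases at 95% identity or more with another gene. Tufm matched Gm9755 over 1356 bases at 99.9% identity and Tfb2m matched Gm1818 over 1187 bases at 99.3%, and these copies were at 1.27% and 1.02% of the member's level. How reads from such stretches were counted is not known, and these values are uncertain to that extent.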

How the data were processed

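Per the labels' protocols, libraries of polyadenylated RNA were made with a TruSeq kit that keeps strand. Reads were counted on mm10, and the tools listed are DESeq2 2.11.40.6, featureCounts 1.6.4, STAR 2.7.2b, Trim Galore 0.4.3.1 and FastQC 0.72, per the submitters' processing notes. Whether counting used strand is not given in the sources used here. The deposited signal values are gene counts that the authors divided by a size factor, in 2 tables scaled separately that share the LacZ libraries. Whole reads were recovered for 100% of 317312 values above 0, within 0.001 reads. The deposited log2 fold changes and adjusted p-values are the authors' own and are used only where named.

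Genes with a mean of at least 10 were tested with limma 3.58.1 in R 4.3.3 (trended, robust, two-sided) on log2(value + 1), with Benjamini-Hochberg adjustment over all tested genes and a threshold of 0.05. A fold change on this scale understates the change of low genes. FL and dCTD were compared on recovered reads scaled together by the median of ratios over 9 libraries, which also gives the printed values per library. RPKM used exon lengths of GENCODE M21. The test was also run on simulated data with few changed genes and scaling by total count. Such data cannot check the scaling where many genes differ, as they do here. edgeR 4.0.16 and DESeq2 1.42.0 on recovered reads, other scalings, pseudocounts, filters and leaving out each library were alternatives. Near-identical stretches were found with blastn 2.17.0 at 95% identity over at least 100 bases.

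The members, the gene lists and the tests were chosen with earlier results of these data known. Values in every library are given by a rule for the regulators of mtDNA transcription and, in each role, for the members with the largest and smallest differences of FL from LacZ and the smallest p of FL against dCTD; Lars2 and Mterf2 were added after their values were seen. Stretches of 30 bases around matches replace the whole promoter windows first planned, because the windows run into untranslated regions. P-values measure the spread between these libraries. RNA pulled down by the protein domain, which the series also covers, was not analysed here.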

Additional observations from a re-analysis of the deposited data

How the results depend on the processing

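Of 816 values of the 48 genes under alternatives, 798 kept direction and call for FL against LacZ, as did 793 of 816 for dCTD against LacZ and 700 of 768 for FL against dCTD. In the last, 11 genes lost and 5 gained a call in some setting. Scaling by total count without Ppargc1a moved the most values in the comparisons with FL, and for dCTD against LacZ it moved none of the 48, where leaving out LacZ replicate 2 left 43 the same. With this scaling, 3 of the 48 genes were lower with FL than with LacZ, where Mars2 (-0.11) and Mtrf1 (-0.29) joined Nars2, and 5410 genes were lower with FL than with dCTD. It also turned the median FL against dCTD difference of the tRNA synthetases to -0.01 (-0.01391) and of the tRNA charging genes to -0.01 (-0.01321); this scaling shifts all genes together. Leaving out 1 library gave 4 to 8 of the 48 genes lower with FL than with dCTD, with 4 without FL replicate 2 and 4 without FL replicate 3, against 7 with all libraries.

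The labels number the libraries 1 to 3 in each group. Deviations of same-numbered libraries from their group means had correlations of -0.201 to 0.0849, and those of differently numbered libraries -0.17 to 0.157. With 3 libraries per group this cannot decide whether same-numbered libraries share a batch. With a replicate block, 40 of the 48 genes were higher and 1 lower with FL, 37 and 1 with dCTD, and 26 and 6 in FL against dCTD. Over all genes the block called 5624 higher and 5096 lower with FL, against 5637 and 5162 without it. For dCTD against LacZ it called 3894 higher and 3502 lower, against 4172 and 3922. In FL against dCTD the numbers were 4129 and 3302, against 4053 and 3228. Standard errors were larger for genes of low count, such as Mtrf1 and Polg2, and how far depth or the spread between libraries limits small differences was not tested.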
